A study of Mus musculus with 4 samples.

Results

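The genes described here are 8 that mark monocytes and macrophages: *Emr1*, *Cd14*, *Itgam*, *Mrc1*, *Cd68*, *Ctss*, *Lyz1* and *Lyz2*. They were chosen by name, and all 11 of their probes were taken from an array of 39429 probes with 31709 different gene or transcript names. *Emr1* is the array's older name for *Adgre1*. All 11 probes were well above the local background on all 4 arrays and all entered the test. Cells were Lin- cells of fetal livers from *Ebf1*-/- mouse embryos, called *Ebf1*-/- FL HPCs, which lack the transcription factor that B cells need early in their development. They were infected with the EMPTY retrovirus, which carries GFP alone, or with one that also carries *Mir195*, and RNA was labelled for 4 one-colour arrays, 2 per virus. The labels place both groups around the pro-B cell stage and give the cytokines SCF, IL-7 and Flt-ligand at 10 ng/mL each, and the methods name OP9 stroma cells, a mouse bone marrow line, as the general support of these cultures. No sort before RNA extraction is described for the arrays, and nothing says that the replicates came from separate embryos or cultures, so that p-values may measure technical spread. The question for these genes is whether *Mir195* moved the cells toward or away from a myeloid profile.

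Monocytes leave the marrow with CD14 and CD11b on their surface, and as macrophages in tissue they carry F4/80 and lectins that take up microbes and debris. Material taken up is broken down by lysozymes and by proteases of the lysosome. Progenitors that lack EBF1 cannot commit to the B lineage and are known to retain myeloid potential, and low transcription of myeloid genes is a known property of uncommitted progenitors. Since the cultures hold several kinds of cells, a change in the number of cells of a type and a change in the RNA per cell cannot be told apart on these arrays.

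The mature microRNA is shown because it is the agent compared, with its seed, bases 2 to 8, in capitals. It lies at chr11:70235062-70235082 on the plus strand of GRCm38.p6 in RefSeq, and 10 mature mouse microRNAs in that table share the seed, among them those of the *Mir15*, *Mir16* and *Mir497* genes.
mmu-miR-195a-5p: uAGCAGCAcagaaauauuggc

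The lysozyme promoters are shown because *Lyz1* and *Lyz2* are neighbouring copies on chromosome 10 and their levels had the same order over the arrays. Both genes lie on the minus strand, in the same build as all positions given here, *Lyz2* at chr10:117277541-117282272 and *Lyz1* at chr10:117287795-117292868. The 150 bases before each start, at chr10:117282273-117282422 and chr10:117292869-117293018, are given from RefSeq with the word ACTTCCT in capitals. This is AGGAAGT read on the other strand, a word bound by Ets factors such as PU.1, the regulator of myeloid genes.
Lyz2 promoter: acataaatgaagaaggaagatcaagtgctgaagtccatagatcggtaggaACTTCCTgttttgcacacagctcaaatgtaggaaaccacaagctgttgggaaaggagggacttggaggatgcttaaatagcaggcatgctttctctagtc
Lyz1 promoter: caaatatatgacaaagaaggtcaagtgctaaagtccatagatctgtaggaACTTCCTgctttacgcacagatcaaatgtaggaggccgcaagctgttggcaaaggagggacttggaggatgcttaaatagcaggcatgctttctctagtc
Of these bases, 129 of 150 (86%) are identical. Over windows of 250 bases before to 50 after the start, read on both strands, AGGAAGT was found in 4 of the 6 promoters held here, those of *Lyz1*, *Lyz2*, *Mrc1* and *Ctss*, against 9.35% of 32851 promoters. GAGGAA, which overlaps the first word, was found in those of *Mrc1*, *Ctss*, *Itgam* and *Cd68*, against 28.3% of all promoters. A match describes the letters in the window and is not a binding site.

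None of the 11 probes passed an adjusted p of 0.05 in limma, and neither did any other probe, so that the percentage called was 0 over 23713 probes tested. At an unadjusted p under 0.05 in limma stood 1 of the 11, against 8.34% of all probes. The mean was higher with *Mir195* for 8 of the 11 probes and lower for 3. It was higher for 9 by quantile normalization, with the 75th percentile taken over bright probes alone and without EMPTY replicate 1. It was higher for 6 when arrays were scaled by their median and also for 6 with *Mir195* replicate 2 left out. Over the 11, the median log2 fold change was 0.15, and 0.0092 without *Mir195* replicate 2, beside 0.013 over all tested probes. Both *Mir195* arrays lay outside both EMPTY arrays for 3 probes, against 37.7% of all tested probes, 2 of them above and 1 below. The smallest two-sided p that an exact permutation of so few arrays allows is 0.333. Levels below are log2 signals relative to the 75th percentile of each array, and the error of a log2 fold change is the standard error of limma with 2 arrays per virus.

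**Figure D1:**
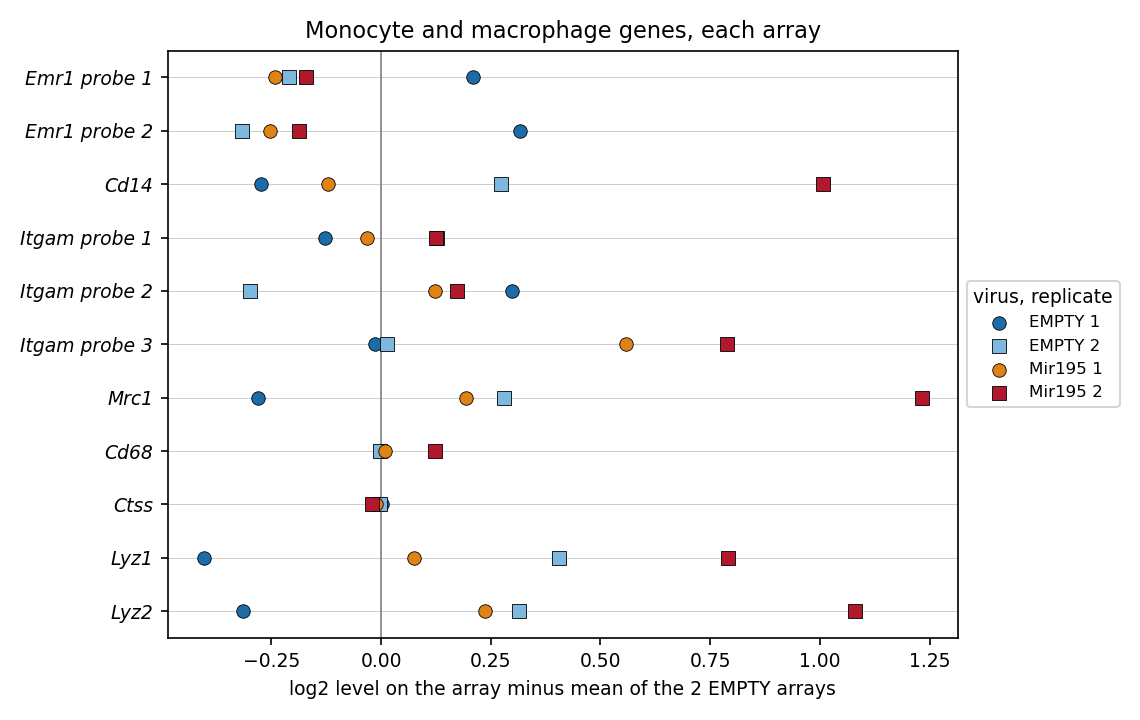
Log2 level of each probe on each array, less the mean of the 2 EMPTY arrays, for the 11 probes. Circles are replicate 1 and squares replicate 2, in blue for EMPTY and in orange and red for *Mir195*. *Mir195* replicate 2 lies far to the right for *Cd14*, *Mrc1*, *Lyz1* and *Lyz2*, whereas both *Mir195* arrays are apart from EMPTY for the third *Itgam* probe.

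The surface receptors *Emr1* and *Cd14* had mean differences of opposite sign, and neither was larger than the spread between replicates. *Emr1*, at chr17:57358581-57483529, encodes F4/80, the adhesion receptor by which mouse macrophages are commonly recognised, and has 2 probes. The brighter read 1.28 and 0.87 with EMPTY and 0.83 and 0.90 with *Mir195*. The other read 0.25 and -0.39 with EMPTY and -0.32 and -0.26 with *Mir195*. Both probes were highest on EMPTY replicate 1, and the other 3 arrays lay close together. The log2 fold changes were -0.21 (SE 0.18, adjusted p = 0.866) and -0.22 (SE 0.24, adjusted p = 0.893). Without EMPTY replicate 1 they were 0.0018 and 0.10, so that the lower mean of *Emr1* rested on that array.

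*Cd14* encodes the receptor that hands lipopolysaccharide to the TLR4 and MD-2 complex. It read -4.38 and -3.84 with EMPTY and -4.23 and -3.10 with *Mir195*, with spots only 2.78 to 4.12 times their local background. The groups overlapped, and the *Mir195* arrays differed by 1.13 from each other, more than their mean differed from that of EMPTY. The log2 fold change was 0.44 (SE 0.42, adjusted p = 0.879), and it was -0.12 without *Mir195* replicate 2. Both partners of this receptor were measured by 1 probe each. *Tlr4*, the signalling receptor, read -4.46 and -4.40 with EMPTY and -3.92 and -3.74 with *Mir195*, a log2 fold change of 0.61 (SE 0.13, adjusted p = 0.530) in which the groups did not overlap. *Ly96*, which encodes MD-2, stood at -0.11 (SE 0.12, adjusted p = 0.900).

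*Itgam* encodes CD11b, the alpha chain of the integrin Mac-1, which monocytes use to adhere and to take up opsonised particles, and it lies at chr7:128062640-128118491. Its 3 probes gave different results. They are shown because the results turn on the probe, the first by its first 30 bases with a CA repeat in capitals and the other 2 whole.
Itgam A_55_P1977934: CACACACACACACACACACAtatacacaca
Itgam A_55_P1977929: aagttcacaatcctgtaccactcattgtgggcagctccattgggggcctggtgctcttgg
Itgam A_55_P1977926: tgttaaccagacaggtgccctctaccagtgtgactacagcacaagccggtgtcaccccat
The repeat runs over 20 bases, and 24 probes of the array, 0.0609%, hold one as long, whereas no other probe of these 8 genes holds one over 5 bases.

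The third of these *Itgam* probes, annotated to another transcript than the first and the second, was the only one of the 11 with an unadjusted p under 0.05. It read -4.37 and -4.34 with EMPTY and -3.80 and -3.57 with *Mir195*, with spots 3.22 to 3.78 times their local background. Both *Mir195* arrays were higher than both EMPTY arrays, and the log2 fold change was 0.67 (SE 0.14), a 1.59-fold difference. The unadjusted p was 0.0049 in limma, and the adjusted p was 0.530. Over the alternatives run, the log2 fold change was 0.48 to 0.79, higher in all, and the lowest adjusted p was 0.062, without *Mir195* replicate 1.

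The *Itgam* probe with the repeat read 2.63 and 2.88 with EMPTY and 2.72 and 2.88 with *Mir195*, and the second read -2.12 and -2.72 with EMPTY and -2.30 and -2.25 with *Mir195*. On both, the *Mir195* arrays lay between the EMPTY arrays. The log2 fold changes were 0.05 (SE 0.15) and 0.15 (SE 0.22), with adjusted p of 0.968 and 0.927. The direction of the first turned without EMPTY replicate 1 (-0.082), without *Mir195* replicate 2 (-0.032) and under scaling by the median (-0.051), and that of the second without EMPTY replicate 2 (-0.15). *Itgb2*, which encodes the beta chain with which CD11b pairs, stood at -0.15 (SE 0.18, adjusted p = 0.909) on overlapping arrays, and at 0.07 without EMPTY replicate 1.

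*Mrc1*, at chr2:14229414-14332023, encodes the mannose receptor CD206, a lectin of tissue macrophages. It read -4.56 and -4.00 with EMPTY and -4.09 and -3.05 with *Mir195*, with spots 2.85 to 4.21 times their local background. The log2 fold change of 0.71 (SE 0.40, adjusted p = 0.759) was the largest of the 11 probes, and it was 0.19 without *Mir195* replicate 2, 0.43 without EMPTY replicate 1 and 1.23 without *Mir195* replicate 1. The groups overlapped, since EMPTY replicate 2 was higher than *Mir195* replicate 1.

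The lysosomal genes *Cd68* and *Ctss* had the smallest spread. *Cd68*, at chr11:69664213-69666170, encodes a glycoprotein of the lysosome membrane and read -2.75 and -2.76 with EMPTY and -2.74 and -2.63 with *Mir195*. *Ctss*, at chr3:95526786-95556405, encodes cathepsin S, the protease that trims the invariant chain from MHC class II, and read 5.12 and 5.11 with EMPTY and 5.10 and 5.10 with *Mir195*. The log2 fold changes were 0.07 (SE 0.12, 95% interval -0.25 to 0.38, adjusted p = 0.939) and -0.02 (SE 0.11, 95% interval -0.31 to 0.28, adjusted p = 0.986). Neither pair of groups overlapped, but these gaps were far smaller than the standard errors. *Cd68* was lower by median scaling (-0.032) and *Ctss* higher by quantile normalization (0.037), so that neither has a direction. The *Ctss* spots were 741 to 905 times their local background, so that this transcript was readily measured in the cultures with either virus.

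Among the direct partners of these proteins, *Cst3*, which encodes cystatin C, an inhibitor of cathepsins, read 5.81 and 5.65 with EMPTY and 5.48 and 5.26 with *Mir195*. Both *Mir195* arrays were lower, and the log2 fold change was -0.36 (SE 0.14, adjusted p = 0.620). *Lamp1*, a neighbour of CD68 in the lysosome membrane, stood at -0.12 (SE 0.12, adjusted p = 0.890).

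The lysozyme genes encode enzymes that cut the wall of bacteria, *Lyz2* in macrophages and neutrophils and *Lyz1* mainly in Paneth cells of the gut. *Lyz1* read -0.07 and 0.74 with EMPTY and 0.41 and 1.12 with *Mir195*. *Lyz2* read -2.01 and -1.39 with EMPTY and -1.46 and -0.62 with *Mir195*. For both, EMPTY replicate 1 was the lowest array and *Mir195* replicate 2 the highest, with the other 2 between them. The log2 fold changes were 0.43 (SE 0.37, adjusted p = 0.863) and 0.66 (SE 0.36, adjusted p = 0.749). The longest run of letters common to their 2 probes was 6 of 60 bases. Cross-hybridisation between the transcripts was not tested. Without EMPTY replicate 1 the value for *Lyz1* was 0.03, and without *Mir195* replicate 2 it was 0.08. For *Lyz2* these values were 0.34 and 0.24.

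**Figure D2:**
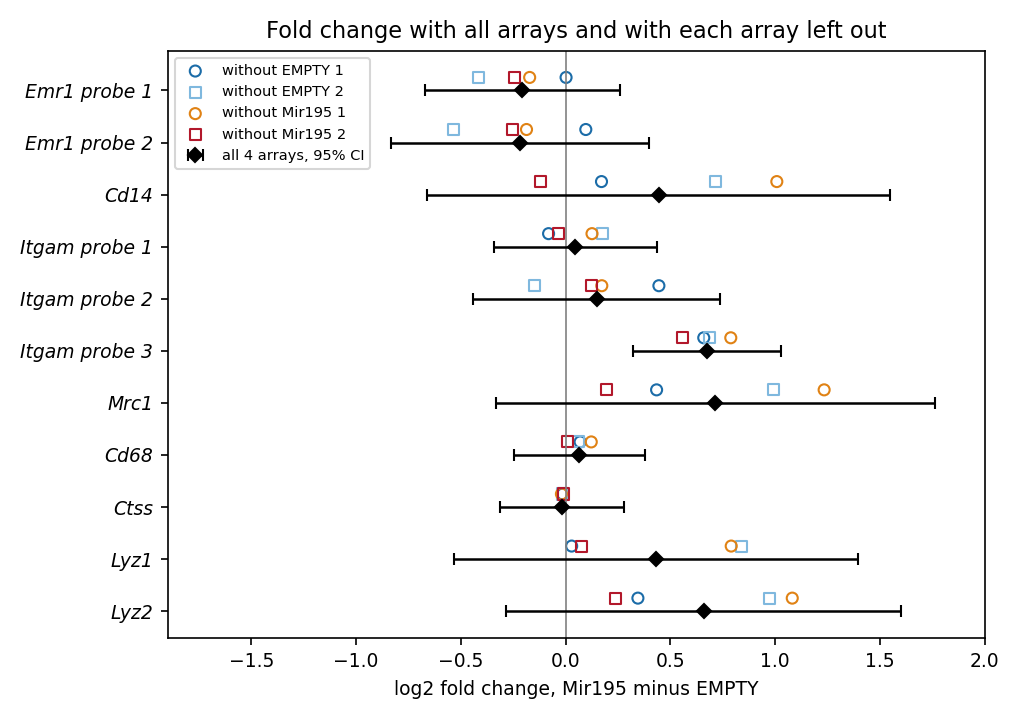
Log2 fold change (*Mir195* minus EMPTY) of the 11 probes. Diamonds with bars give the value from all 4 arrays with its 95% interval in limma, and open symbols the value with each array left out. All intervals but that of the third *Itgam* probe (0.32 to 1.03) cross 0. For *Cd14*, *Mrc1*, *Lyz1* and *Lyz2* the values without single arrays lie far apart within the interval, for *Mrc1* from 0.19 to 1.23.

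*Cd14*, *Mrc1*, *Lyz1* and *Lyz2* had the same order of arrays, from EMPTY replicate 1 to *Mir195* replicate 1, EMPTY replicate 2 and *Mir195* replicate 2. This order was noticed after the values were seen and was held by 4.33% of all tested probes. The span from the lowest to the highest array was 1.28 for *Cd14*, 1.51 for *Mrc1*, 1.19 for *Lyz1* and 1.40 for *Lyz2*, and that between the EMPTY arrays alone was 0.55 to 0.81. Markers of OP9 stroma were also highest on *Mir195* replicate 2 in 7 of 8 genes tested, against 34.3% of all tested probes. The summed level of these 8 was 21.7 and 22.1 times the 75th percentile with EMPTY and 18.1 and 24.4 times with *Mir195*. *Cxcl12*, a chemokine of stroma cells, read 0.40 and 0.48 with EMPTY and 0.34 and 1.35 with *Mir195*. *Thy1*, which T cells and progenitors also express, was the exception, at 3.56 and 3.50 with EMPTY and 3.099 and 2.79 with *Mir195* (-0.59, SE 0.15, adjusted p = 0.530), and it makes up much of the summed level. *Dcn*, *Lum*, *Pdgfra*, *Postn* and *Vcam1* were not tested since they were dim. The part of stroma RNA in the values of these 4 genes was not tested. At the other end the arrays differed, since the 4 genes were lowest on EMPTY replicate 1 and 6 of the 8 stroma markers on *Mir195* replicate 1.

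**Figure D3:**
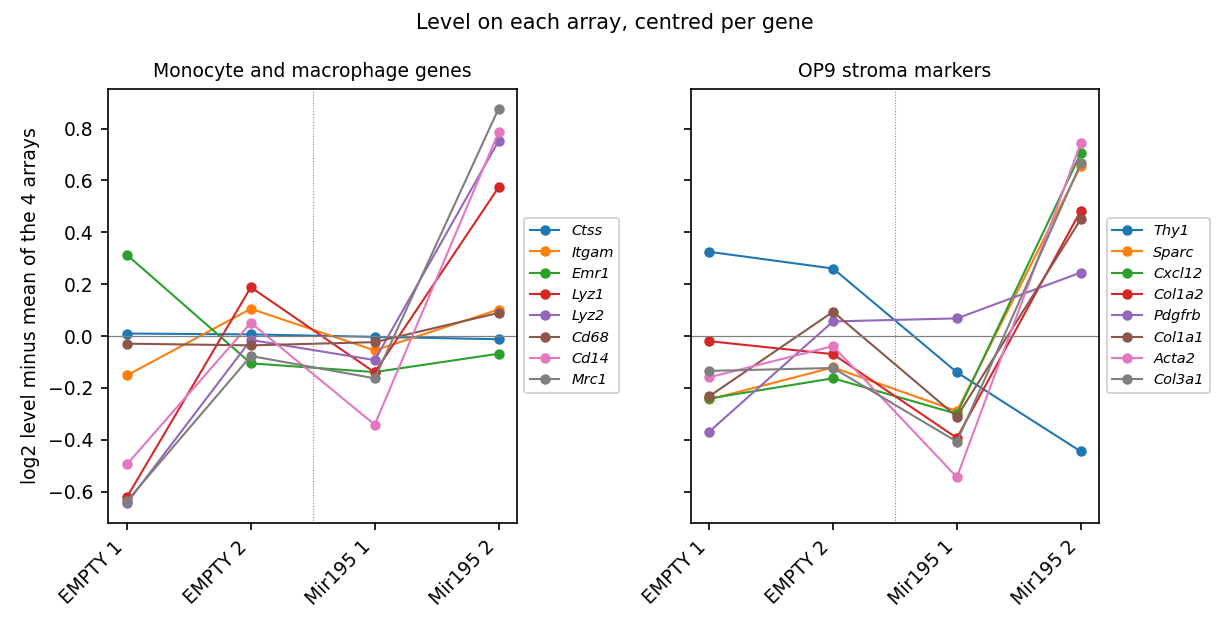
Log2 level on each array less the mean of the 4 arrays, for the 8 genes (left, each by its probe of highest mean signal) and for the 8 tested markers of OP9 stroma (right). Lines join the values of a gene and imply no order of replicates. *Cd14*, *Mrc1*, *Lyz1* and *Lyz2* go from their lowest value on EMPTY replicate 1 to their highest on *Mir195* replicate 2, where 7 of the 8 stroma markers are also highest.

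By likeness of the centred pattern over the 4 arrays to the mean of the 8 genes, the nearest of 22535 probes were those of *Scai*, *Scd3*, *Disc1*, *Smo* and *Gm5649*. Their Euclidean distances were 0.043 to 0.051 on the log2 scale, and none is a gene typical of monocytes. The mean pattern itself was -0.28 and 0.01 with EMPTY and -0.12 and 0.39 with *Mir195*.

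The other genes of the monocyte and macrophage program differed in both directions, and in no list did any gene pass the adjusted threshold in limma. Each gene is given by its probe of highest mean signal, and the highest and the lowest gene of a list are those whose probe was well above background throughout. Of 37 such genes and partners, 11 turned direction with 1 array left out, and 20 others moved by over 1.5 times. Of 18 other genes typical of these cells that were tested, 9 were higher and 9 lower with a median log2 fold change of -0.0037. An unadjusted p under 0.05 in limma was found for 4 of the 18, against 8.34% of all tested probes. They were *Ms4a7* and the complement genes *C1qa*, *C1qb* and *C1qc*, all higher with *Mir195*. Of these, *C1qa* entered the test only through the *Mir195* arrays, which favours a higher value there, so that it adds nothing to the count. *Ms4a7*, a membrane protein of macrophages and the highest of the list, read -1.96 and -1.73 with EMPTY and -1.19 and -0.34 with *Mir195* (1.08, SE 0.31, adjusted p = 0.531). *Lgals3*, which encodes galectin-3, was the lowest at -0.29 (SE 0.22, adjusted p = 0.836).

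Of the growth factors of monocytes and their receptors, 5 of 10 tested genes were higher and 5 lower, with a median of -0.02. In limma, 1 of the 10, *Cx3cr1*, had an unadjusted p under 0.05, against 8.34% of all tested probes. *Csf1r*, the receptor on which monocytes depend, read 1.48 and 1.56 with EMPTY and 1.72 and 1.49 with *Mir195* (0.08, SE 0.14, adjusted p = 0.936) on the brightest of its 3 probes. On the other 2 it was higher on both *Mir195* arrays, at 0.31 (SE 0.15, adjusted p = 0.684) and 0.29 (SE 0.13, adjusted p = 0.652). Its ligand *Csf1* stood at -0.05 (SE 0.14, adjusted p = 0.962). *Cx3cr1*, the fractalkine receptor of patrolling monocytes, was higher on both *Mir195* arrays (0.50, SE 0.17, adjusted p = 0.562), and *Ccr2*, the chemokine receptor of inflammatory monocytes, was lower on both (-0.39, SE 0.23, adjusted p = 0.777). The value of *Cx3cr1* was 0.30 without *Mir195* replicate 1, and that of *Ccr2* -0.098 without EMPTY replicate 1. Of the transcription factors, 4 of 10 were higher and 6 lower, with a median of -0.06 and 0 of 10 at an unadjusted p under 0.05 in limma. *Spi1*, which encodes PU.1, read -0.75 and -0.71 with EMPTY and -0.72 and -0.92 with *Mir195* (-0.09, SE 0.13, adjusted p = 0.920). *Klf4*, a factor of monocytes, was highest at 0.56 (SE 0.63), and -0.36 without *Mir195* replicate 2, and *Id3* lowest at -0.16.

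Among lectin and scavenger receptors, 7 of 12 tested genes were higher and 5 lower, with a median of 0.12, which was -0.080 over the probes well above background on all arrays. An unadjusted p under 0.05 in limma was found for 3 of the 12, *Clec4e* and *Stab1* higher and *Cd209a* lower, against 8.34% of all tested probes. Of these, *Stab1* entered the test only through the *Mir195* arrays, which favours a higher value there, so that it adds nothing to the count. *Cd209a*, a lectin of dendritic cells and monocytes, read -2.77 and -4.02 with EMPTY and -5.72 and -4.65 with *Mir195*, the largest difference of the list (-1.79, SE 0.55, adjusted p = 0.538). Over the alternatives it was -2.42 to -0.61, and -1.16 without EMPTY replicate 1. *Trem2*, a lipid receptor of macrophages, was at 0.58 (SE 0.35, adjusted p = 0.790), the highest of those well above background throughout. *Stab1*, a scavenger receptor well above background on 3 arrays, was at 0.92 (SE 0.32, adjusted p = 0.567), and at 0.46 without EMPTY replicate 1. *Cd163*, *Cd209b*, *Cd36*, *Msr1*, *Siglec1* and *Timd4*, markers of mature tissue macrophages, were too dim to be tested.

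Of the genes of lipopolysaccharide recognition, 6 of 13 were higher and 7 lower (median -0.04), of the integrins and their ligands 4 of 10 and 6 (median -0.05), of the lysosomal genes 6 of 15 and 9 (median -0.0089), and of the adhesion receptors related to F4/80 1 and 1. In limma, 2 of the 13, *Lbp* and *Tlr4*, both higher, had an unadjusted p under 0.05, against 8.34% of all tested probes. So did 1 of the 15 lysosomal genes, *Ctsh*, which was lower, and 0 genes of the other 2 lists. *Lbp*, the lipopolysaccharide carrier, was highest of the first list at 0.61 (SE 0.16, adjusted p = 0.530), and *Tirap*, an adaptor of TLR4, lowest at -0.20. In the integrin list *Sirpa* was highest at 0.15 and *Itgb2* lowest. In the lysosomal list *Ctsk* was highest at 0.22 and *Ctsh*, a cathepsin that unlike *Ctss* works as an aminopeptidase, lowest at -0.70 (SE 0.20, adjusted p = 0.530). In the smallest list *Adgrg1* stood at 0.12 and *Adgre5* at -0.13.

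Markers of other cells that the cultures can hold were read from the same fit. Of neutrophil markers 5 of 8 tested were higher (median 0.14), from *Ctsg* at 0.96 to *Ly6g* at -0.28, and *Ngp*, *S100a8* and *S100a9* were too dim to be tested. The medians were 0.04 for 11 dendritic cell genes, 0.07 for 9 B lineage genes, 0.23 for 8 stroma genes and 0.13 for 7 pan-leukocyte genes. Of the dendritic cell genes *Clec9a* was highest at 0.54 and *H2-Aa* lowest at -0.94. Of the B lineage genes *Cd79b*, a chain of the receptor complex, was highest at 1.18 (SE 0.28, adjusted p = 0.530) and *Dntt* lowest at -0.54 (SE 0.21, adjusted p = 0.605). The 2 mast cell genes tested, *Cpa3* and *Tpsb2*, stood at -0.65 and 0.04. The 3 erythroid genes had a median of -0.58, which was -0.038 without EMPTY replicate 1 and 0.035 without *Mir195* replicate 2, with *Car1* at 0.37 and *Hba-a1* at -0.58. The third, *Epor*, well above background on 3 arrays, read -3.35 and -3.25 with EMPTY and -3.26 and -7.93 with *Mir195*. *Laptm5* was the lowest pan-leukocyte gene at -0.18 and *Ptprc* the highest at 0.27. *Ptprc*, which encodes CD45 of all leukocytes, read 2.21 and 1.56 with EMPTY and 1.72 and 2.59 with *Mir195*.

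**Figure D4:**
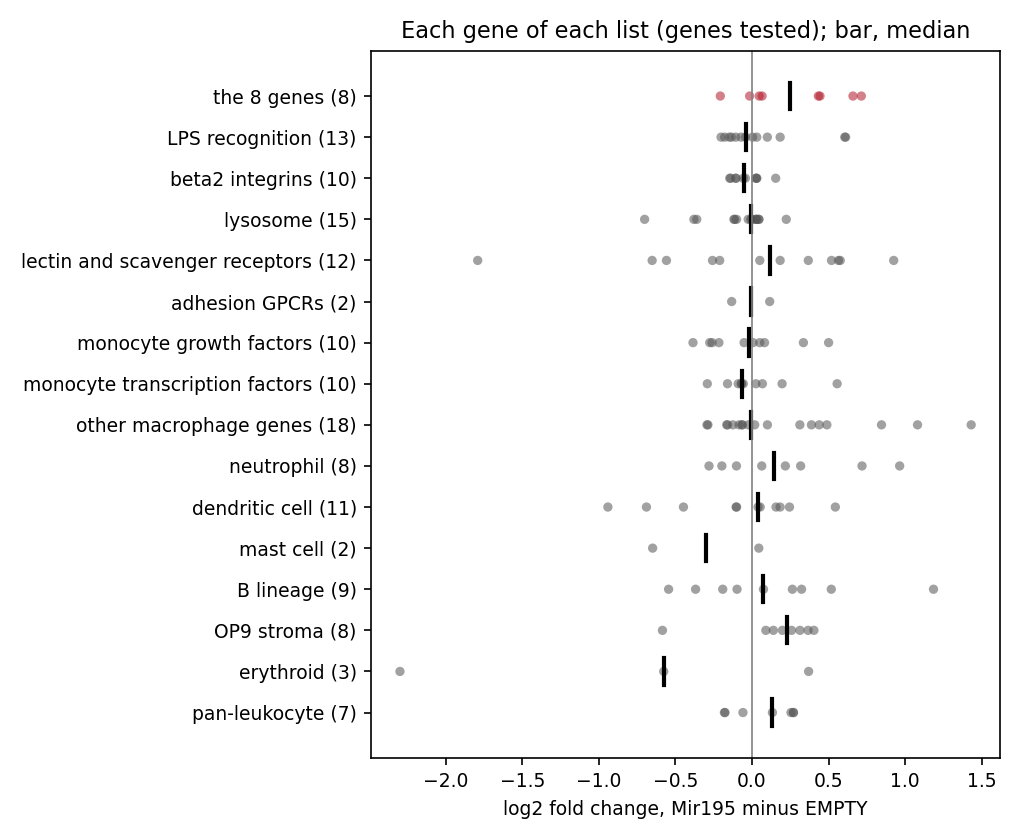
Log2 fold change (*Mir195* minus EMPTY) of each tested gene, by list, with the number tested in brackets and the median as a bar. The 8 genes (red, median 0.25 by the probe of highest mean signal) lie between -0.21 and 0.71, and the stroma markers have a median of 0.23.

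*Ebf1* itself read 2.01 and 1.89 with EMPTY and 1.85 and 2.03 with *Mir195* on a probe well above background. Where this probe lies relative to the disrupted part is not given in the sources used here, so that it checks no label. All 4 arrays lie on 1 slide with EMPTY in the first positions, which confounds position with virus. The probes well above background numbered 23666 to 24689, and the correlation between arrays was 0.996 for EMPTY and 0.987 for *Mir195*. That of *Mir195* replicate 2 with the other 3 was 0.983 to 0.987, the lowest on the slide.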

How the data were processed

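The authors deposited scanner files with the intensity of each spot, from which the software had taken the local background and a spatial trend, and a table of log2 values normalized to the 75th percentile. Per the labels the software was Agilent Feature Extraction 11.5.1.1, and per the file headers 9.1.3.1. Spots flagged as outliers and control spots were left out, the log2 values of a probe's spots were averaged, and that of the array's 75th percentile was taken off. A probe was tested if, with either virus, both arrays were well above background and no spot was an outlier, which left 23713. The test was that of limma (version 3.58.1, lmFit with eBayes, under R 4.3.3), two-sided, with Benjamini-Hochberg adjustment at a threshold of 0.05. The computation was tested on simulated data. Symbols were assigned by accession in GRCm38.p6 for 26055 probes. A gene of a list is given by its brightest probe. Named are all probes of the 8 genes, their direct partners and, of each list, the genes with the highest and the lowest fold change whose probe was well above background throughout. The 8 genes and the lists were chosen with earlier results of these data known. No array was saturated, and the number of arrays limits the precision. The alternatives were other background corrections, scalings, filters, the authors' table, robust estimation with a trend, replicate blocks, the methods' t-test, the mean of a gene's probes and each array left out.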

Additional observations from a re-analysis of the deposited data

How the results depend on the processing

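The number of probes called over the whole array was 0 in limma and also by the methods' t-test after Benjamini-Hochberg adjustment, where 1978 and 1132 had an unadjusted p under 0.05. It was 3 with scaling by the median and 0 to 900 with an array left out, the 900 without *Mir195* replicate 1. The labels of both groups share only replicate numbers. With the replicate block 5 probes were called, and with the numbers crossed as a block, which was chosen after seeing the data since the deviations of same-numbered arrays correlated at -0.10, 0 were called. None of the 11 probes was called in any alternative, and the lowest adjusted p was 0.057 (*Mrc1*, without *Mir195* replicate 1). Of 154 values of these probes under the alternatives, 144 kept their direction and 10 reversed. The filters, robust estimation with a trend, the replicate block and the methods' t-test leave a fold change of these probes as it is. Values under those settings could not reverse, and all 10 reversals came from other scalings or from an array left out. By scaling with the median, *Itgam* (the probe with the repeat) was -0.051 and *Cd68* -0.032. *Ctss* was 0.037 by quantile normalization and 0.00057 with the percentile taken over bright probes alone. With an array left out, *Emr1* ranged from -0.42 to 0.0018 and from -0.54 to 0.10 by its 2 probes, *Cd14* from -0.12 to 1.01, and *Itgam* from -0.082 to 0.18 by its first probe and from -0.15 to 0.44 by its second. The number of the 11 probes with groups that did not overlap was 1 by quantile normalization, with the other percentile and in the authors' table, and 4 to 11 with an array left out, when a single array stands for its group. The cause of these changes was not tested. The median of the 11 was 0.0092 to 0.18 with an array left out, and that of the 8 genes by their brightest probes was -0.0010 without *Mir195* replicate 2. Of the lists, the median of the stroma markers moved to 0.66 when *Mir195* replicate 1 was left out and to -0.26 when replicate 2 was, and that of the dendritic cell genes was -0.10 with the mean of a gene's probes. Dim probes limit *Cd14*, *Mrc1* and the third *Itgam* probe, whose spots were under 5 times their background.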

Other observations

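The chains of complement C1q and the MHC class II genes, products of macrophages and of cells that present antigen, were picked out after their values were seen. *C1qb* read -3.68 and -3.75 with EMPTY and -3.45 and -3.21 with *Mir195* (log2 fold change 0.39, SE 0.14, adjusted p = 0.578), and *C1qc* read -4.72 and -4.86 with EMPTY and -4.33 and -3.56 with *Mir195* (0.85, SE 0.28, adjusted p = 0.554). *C1qa* was not well above background on either EMPTY array. With the processing described above it was at least 1.76-fold higher with *Mir195*, the bound set by the dimmest probes well above background. This bound holds for that processing alone, since over the alternatives the log2 fold change of *C1qa* was 0.52 to 1.73. It entered the test only through the *Mir195* arrays, and so it had to be higher there. The groups overlapped for neither *C1qb* nor *C1qc*, as for 37.7% of all tested probes. The values of these 2 genes were 0.27 and 0.46 without *Mir195* replicate 2.

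The class II chain *H2-Aa* read 2.45 and 1.80 with EMPTY and 1.05 and 1.32 with *Mir195* (-0.94, SE 0.26, adjusted p = 0.530). *H2-Eb1* stood at -0.69 (SE 0.26, adjusted p = 0.594) and *Cd74*, the invariant chain that cathepsin S cuts, at -0.45 (SE 0.15, adjusted p = 0.558). Both *Mir195* arrays lay below both EMPTY arrays for all 3 of these genes. Groups did not overlap, in either direction, for 37.7% of all tested probes. Without EMPTY replicate 1, the highest array, the values of the 3 were -0.61, -0.41 and -0.32. None of the 3 passed the adjusted threshold in limma. *H2-Ab1*, another class II chain, was well above background on 4 arrays but was not tested because of an outlier spot. *Ciita*, the activator of class II transcription, stood at 0.04 (SE 0.15, adjusted p = 0.973) by the brightest of its 3 probes.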
